A study of Canis lupus familiaris with 28 samples.

Results

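The transcripts described here were higher in confluent than in sub-confluent wild-type TR-T10 cells and had nearly the same confluent level when p190A and p190B were knocked down. They number 161 of the 29884 dog transcripts counted, or 0.539%. They were chosen by their measured values, and the working name for them was contact-raised transcripts independent of p190. That name described the confluent level, which the choice itself fixed. The difference between confluent and sub-confluent cells, called the contact difference below, was at least 0.8 in wild type by the same choice. With both shRNAs it was called higher in 1 of 160 tested transcripts, beside 0.911% of all tested. In the mean of the single knockdowns it was called higher in 98 of 160, beside 14.3%. That mean drew on more libraries, and the direct test of both shRNAs against the mean called 0 of 160. These counts thus do not show a different response with both shRNAs. The name described a level that the choice fixed, so it is not used for the response to density. The transcripts are called the selected transcripts below.

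TR-T10 is a dog cell line in which introduced constructs were controlled by a tetracycline repressor. In experiment 1, wild-type cells, cells with a p190A shRNA, cells with a p190B shRNA and cells with both were each harvested confluent and sub-confluent, which made 8 groups of 2 libraries. Experiment 2 was confluent throughout. It had 3 libraries of wild type, 3 with the p190A and p190B shRNAs, 3 with these shRNAs plus YAP5SA+S94A, and 2 distinct libraries labelled YAP5SA. Knockdown was induced with doxycycline at 4 µg/ml for 3 days, and cells were replated for 3 to 5 days at either density. The labels do not say whether wild-type cells received doxycycline. The shRNAs came in retroviruses, the p190A line was selected in hygromycin and the p190B line in puromycin, and the line with both was made from the p190B line and selected in hygromycin. The YAP constructs came in lentiviruses with G418 selection, and in the knockdown cells doxycycline induced YAP and shRNA together. Each line thus differed from wild type by its virus and selection as well as by its target, and these cannot be told apart. For the libraries labelled YAP5SA, one label field gave only YAP5SA expression and another also gave both shRNAs, so their genotype is uncertain.

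p190A and p190B are related GTPase-activating proteins, a class of proteins that switch off small GTPases. Cells that touch on all sides usually stop dividing, and in this state the Hippo kinases LATS phosphorylate the coactivator YAP and keep it out of the nucleus. YAP5SA lacks the serines that LATS phosphorylates and stays active. YAP acts on most of its target genes through TEAD transcription factors, and S94A abolishes that contact.

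The files gave each transcript an Ensembl identifier and no gene name, and 0 of the 29884 identifiers matched the 43286 dog genes of the reference table. The knockdown could therefore not be read from the targeted transcripts, the cells could not be checked against markers, the 14 gene lists were not run, and no sequence is printed. Transcript counts summed to 10706716 to 17215544 per library, with 15338 to 16264 transcripts detected. Variation between replicates was larger in experiment 1 (biological coefficient of variation 0.128) than in experiment 2 (0.0303). Levels are CPM, the transcript counts scaled to a common library total, which are relative within a library. In such bulk samples, fewer cells making a transcript and less RNA per cell cannot be told apart.

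Selection used the logarithm L = log2(group mean CPM + 1). A transcript had to be at least 0.8 higher in confluent than in sub-confluent wild type, which 1149 were. Its confluent level with both shRNAs had to lie within 0.5 of wild type in experiment 1, which left 266, and in experiment 2, which left 186. Requiring the confluent p190A and p190B levels to lie within 0.7 of each other left 169, and requiring the libraries labelled YAP5SA to lie within 0.8 of wild type left 161, or 14.0% of the 1149. Of the other 988 transcripts raised in confluent wild type, 855 were at least 0.5 lower with both shRNAs at confluence in experiment 1. The contact threshold divided close neighbours. The nearest selected transcript had a contact difference of 0.8024 and the nearest one left out 0.7993, and 38 selected transcripts and 39 others that met every other criterion lay within 0.05 of the threshold. For the confluent double knockdown the nearest values inside and outside were 0.4960 and 0.5005 in experiment 1 and 0.4991 and 0.5056 in experiment 2. They were 0.6946 and 0.7072 for p190A against p190B, and 0.7999 and 0.8036 for the libraries labelled YAP5SA. The sub-confluent knockdown libraries and the YAP5SA+S94A libraries entered no criterion. Every test below includes some of them. The comparison among sub-confluent knockdowns contrasted no library of the rule. The contact tests also contrasted confluent knockdown libraries, which the rule had limited. The YAP5SA+S94A tests also contrasted wild type or both shRNAs of experiment 2, which the rule had limited too. All libraries of an experiment shared in the scaling and in the estimate of the spread.

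The selected transcripts covered a wide range of abundance. In confluent wild type of experiment 1 their median was 9.93 CPM, with a range of 0.906 to 1242 CPM. In sub-confluent wild type the median was 3.98 CPM, with a range of 0 to 689 CPM. These levels chose the transcripts and carry no test. The sub-confluent medians were 5.11 CPM with the p190A shRNA, 6.35 CPM with the p190B shRNA and 7.3 CPM with both. The confluent medians were 9.55 CPM with p190A, 10.4 CPM with p190B and 7.9 CPM with both. Summed over all 161, the sub-confluent level was 5220 CPM in wild type and 7193, 8359 and 8556 CPM in the p190A, p190B and double knockdown. In confluent cells of experiment 1 the sum was 10535 CPM in wild type and 9756, 11327 and 9533 CPM in the same 3 knockdowns. The density gap in the sum was thus smaller in each knockdown than in wild type, and smallest with both shRNAs. Wild type was chosen for a large gap, so its position as the widest is not a result.

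The same picture was seen library by library, in the median over the 161 transcripts of log2(CPM + 1) minus the L of sub-confluent wild type. The confluent wild-type libraries stood at 1.02 and 0.89. Confluent libraries stood at 0.90 and 0.88 with p190A, 0.75 and 1.13 with p190B, and 0.52 and 0.85 with both shRNAs. Sub-confluent libraries stood at 0.40 and 0.04 with p190A, 0.45 and 0.28 with p190B, and 0.56 and 0.42 with both. The sub-confluent and confluent libraries were apart in both single knockdowns, while with both shRNAs the lower confluent library (0.52) lay below the higher sub-confluent one (0.56). The second sub-confluent p190A library stood apart from the first, at nearly the wild-type level, with 93 of 161 transcripts above the wild-type mean against 140 in the first. Over all transcripts tested in experiment 1 the same median lay between -0.02 and 0.11 in every library.

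**Figure D1:**
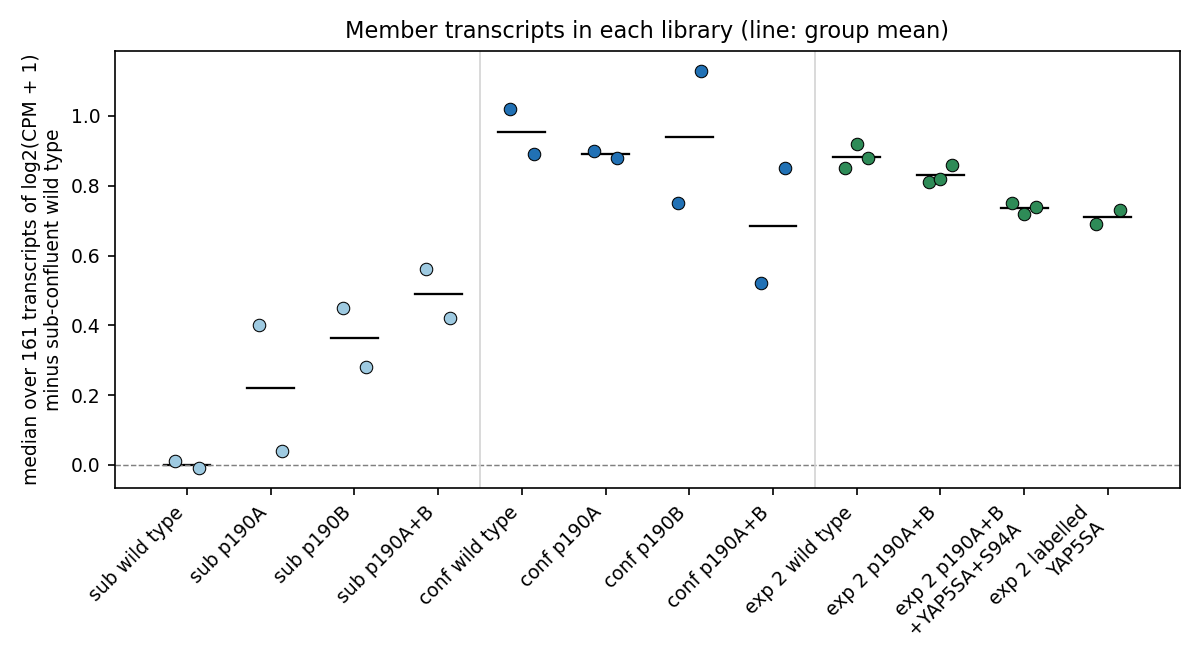
Median over the 161 selected transcripts of log2(CPM + 1) minus the sub-confluent wild-type level, 1 point per library, for the 12 groups. Lines are group means, and sub and conf stand for sub-confluent and confluent cells of experiment 1. Sub-confluent libraries with both shRNAs (0.56 and 0.42) lie above sub-confluent wild type and on either side of the lower confluent library with both shRNAs (0.52).

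Cells with a single shRNA kept a contact difference in these transcripts. Averaged over the p190A and p190B lines, 98 of the 160 tested selected transcripts were higher in confluent cells and 0 were lower (edgeR quasi-likelihood test, Benjamini-Hochberg adjusted p under 0.05). Of all 12845 transcripts tested, 14.3% were called higher. Wild-type libraries were not contrasted here, but they shared in the scaling and in the estimate of the spread. Same-numbered libraries of a density also varied together, with correlations of 0.142 to 0.537 between groups. The choice by wild type may thus carry into this comparison, which was not tested. The median log2 fold change was 0.73 in the selected transcripts and 0.00 over all tested, with a median standard error of 0.22 in the former. The selected values ran from -0.10 to 3.65. They were above 0 in 159 of 160, beside 50.2% of all tested, and 46 had a difference of at least 2-fold. At an unadjusted p under 0.05, 132 were higher and 0 lower, beside 21% and 21.3% of all tested. With 1 library left out at a time the selected median ran from 0.59 to 0.84. Calls were fewest without the second library of confluent p190B, sub-confluent p190A or sub-confluent p190B. This held among the selected transcripts and over all tested. One selected transcript had too few counts to be tested in experiment 1, with at most 16 in any library.

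Each single knockdown alone had fewer calls. With the p190A shRNA 31 of 160 rose at confluence, beside 3.87% of all tested, and the median log2 fold change was 0.76. With the p190B shRNA 21 of 160 rose, beside 4.49% of all tested, and the median was 0.71. In both lines 0 fell, and 0 were lower at an unadjusted p under 0.05. With 1 library left out at a time, the median ran from 0.57 to 1.01 with p190A and from 0.43 to 0.87 with p190B. The number of calls depended strongly on the library left out, among the selected transcripts and over all tested. With 2 libraries a group, the 2 counts therefore rest on single libraries, and an arm left with 1 library is assumed to vary like the other groups. By direction alone, both confluent libraries lay above both sub-confluent ones for 137 of 161 with p190A, where 31.2% of all tested did, and for 110 of 161 with p190B, where 32.5% did. Both held in 94 of the 161, and in 18.9% of all tested.

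No selected transcript was called for a contact difference that differed between the p190A and p190B lines. The rule had already limited the confluent side of this comparison to within 0.7. Of the selected transcripts, 9 were called in both lines, 22 in p190A alone and 12 in p190B alone, and 57 further transcripts were called in the mean but in neither line. The direct test of p190A against p190B called 0 of 160 with edgeR, beside 0% of all tested, and 0 with DESeq2, beside 0.0623%. At an unadjusted p under 0.05 it held 1 selected transcript, beside 4.52% of all tested. The difference had a median of 0.06 and a range of -0.92 to 2.54, with a median standard error of 0.45. With no filter on low counts 3 were called.

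With both shRNAs the contact difference was called in 1 selected transcript of 160 and 0 were called lower, beside 0.911% of all tested called higher. The median log2 fold change was 0.25, with 124 transcripts above 0 and 36 below, beside 50.7% of all tested above 0. At an unadjusted p under 0.05 there were 24 higher and 2 lower, beside 9.22% and 8.7% of all tested. With a replicate block within each density, 18 were called higher and 1 lower, beside 4.98% of all tested called higher. Both confluent libraries lay above both sub-confluent ones in 57 of 161, where 25.8% of all tested did. The confluent double-knockdown level had been limited by the rule to within 0.5 of a wild-type level that was chosen high. Against wild type at the same density, the median difference in L with both shRNAs was -0.27 in confluent and 0.49 in sub-confluent cells. No criterion named the sub-confluent libraries, but the choice by the confluent level of the same line may bear on them. The median contact log2 fold change was 0.41 without the first confluent library with both shRNAs, and 0.03 without the second.

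Set beside the single knockdowns, the contact difference with both shRNAs was smaller in 141 of 160 selected transcripts, but the test of that difference called none. Over all tested, it was larger with both shRNAs in 51.3%. The median of the difference, both shRNAs minus the mean of the single ones, was -0.44 log2, with a range of -3.75 to 1.00 and a median standard error of 0.39. Of all tested, 1.27% were called in either direction. At an unadjusted p under 0.05 there were 31 selected transcripts, all lower with both shRNAs, where 5.18% of all tested were lower and 8.25% higher. DESeq2 called 4, all lower, beside 2.86% of all tested called in either direction. Leaving out 1 library at a time gave medians of -0.58 to -0.34, with calls in some of these fits.

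On the L scale the wild-type contact difference had a median of 0.92 and quartiles of 0.85 and 1.09. The medians were 0.67 with p190A (quartiles 0.47 and 0.87), 0.62 with p190B (0.44 and 0.77) and 0.22 with both (0.02 and 0.40). The difference was above 0 in 158 of 161 with p190A, in 161 with p190B and in 125 with both. Over all tested it was above 0 in 53.5%, 54.6% and 52%. It reached the 0.8 that the rule had asked of wild type in 57, 33 and 8 transcripts, beside 4.01%, 3.85% and 1.54% of all tested. The other 988 transcripts raised in confluent wild type had medians of 1.09 in wild type, 0.71 with p190A, 0.67 with p190B and 0.33 with both. In the single knockdowns the medians of both sets were thus similar, and in both sets the median was lower with both shRNAs than with either one.

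**Figure D2:**
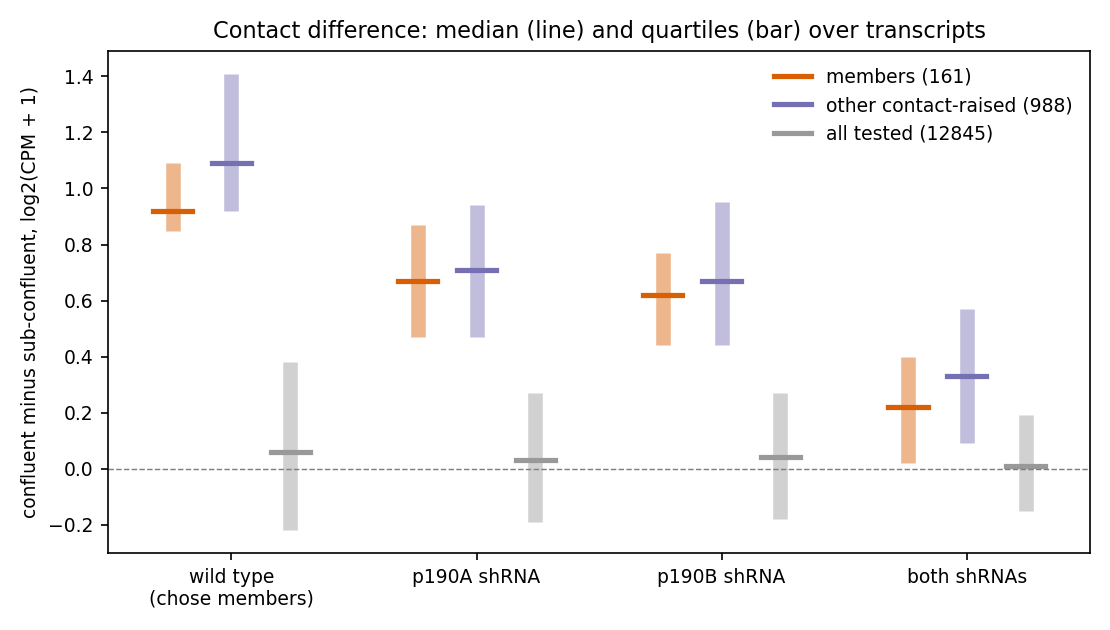
Confluent minus sub-confluent L in wild type and the 3 knockdowns for the 161 selected transcripts, the other 988 raised in confluent wild type, and all tested. Bars span the quartiles over transcripts and lines mark the median. The selected medians are 0.92, 0.67, 0.62 and 0.22, and those over all tested lie near 0.

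**Figure D3:**
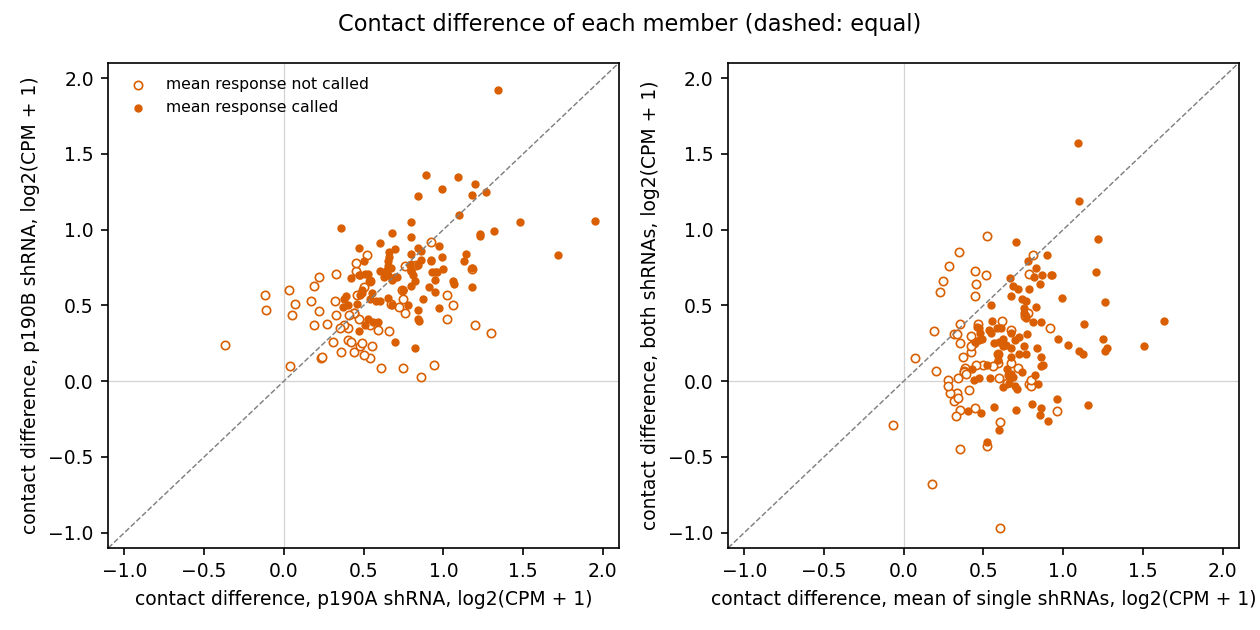
Density difference (confluent minus sub-confluent L) of each selected transcript: p190B against p190A in 1 panel, and both shRNAs against the mean of the single shRNAs in the other, with the line of equality. Filled points were called in the mean of the single lines. The points of the second panel lie mostly below the line.

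In sub-confluent cells the selected transcripts stood above wild type in the knockdown lines. Relative to sub-confluent wild type, the low side of the rule, the median difference in L was 0.22 with p190A, 0.35 with p190B and 0.49 with both. With both shRNAs the quartiles were 0.22 and 0.77, and 80 of 161 transcripts were at least 0.5 above wild type, beside 16% of all tested. In the other 988 raised transcripts the medians were 0.01, 0.17 and -0.22, and over all tested they were 0.02, -0.01 and 0.04. Of these 988, the 855 that were at least 0.5 lower with both shRNAs at confluence had a sub-confluent median of -0.32 with both. The choice by the confluent level of that line may thus bear on its sub-confluent level too, which was not tested. Since wild type was also chosen low, these values are a description. Of the 4 sub-confluent groups, the highest was the double knockdown in 92 transcripts, p190B in 43, p190A in 23 and wild type in 3.

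The sub-confluent libraries of the 3 knockdowns entered no criterion and were compared with one another. For both shRNAs against the mean of the single ones the median was 0.20 log2. In this comparison 15 of 160 rose and 3 fell with both shRNAs, beside 13.7% and 14.9% of all tested. The share that rose was below the background, and the lower share was far below it. Among all 160, 111 were above 0, beside 50.4% of all tested. The balance of calls higher and lower depended on the second sub-confluent p190A library, while the median without it was 0.15. With 1 library left out at a time the medians ran from 0.13 to 0.35.

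With cutoffs of 0.5 chosen after the values were seen, the transcripts fell into 4 patterns. In 75, the sub-confluent double knockdown was at least 0.5 above wild type and the contact difference with both shRNAs was under 0.5. In 28 the reverse held, with a sub-confluent level near wild type and a contact difference of at least 0.5. Both were at least 0.5 in 5 and both under 0.5 in 53. Both measures contain the sub-confluent double-knockdown level, with opposite sign, and the rule limited the other levels in them. A high value of the first measure thus goes with a low value of the second. The split is a description, with no share over all tested beside it. At confluence the double knockdown was the lowest of the 4 groups of experiment 1 in 101 transcripts. Its median difference from wild type was -0.27, within the limit of 0.5 that the rule had set. Confluent wild type, chosen high by the rule, was the lowest in 12, so these counts are a description.

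Lower abundance went with larger fold changes, and the calls followed no order of abundance. In the mean of the single knockdowns the median log2 fold change was 1.33 in the 40 transcripts under 3 CPM in confluent wild type, 0.85 in the 41 at 3 to 10 CPM, 0.66 in the 63 at 10 to 100 CPM, and 0.35 in the 17 at 100 CPM or more. The rule takes the logarithm after adding 1, so a low transcript needs a larger fold change to pass it. Calls were made in 20 of 39 tested, 21 of 41, 50 of 63 and 7 of 17, beside 8.06%, 15.1%, 16% and 16% of all tested transcripts of the same classes. With both shRNAs the median contact difference in L was 0.32, 0.16, 0.22 and 0.15 in the same classes, and the sub-confluent difference from wild type was 0.39, 0.55, 0.51 and 0.66.

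Transcripts were named by a rule that took, among the 80 tested with a mean log2 CPM of at least 3, the 2 highest and the 2 lowest in the mean contact difference of the single knockdowns. Their extreme rank there is a property of that rule. No gene name is known for any of them.

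ENSCAFT00000002564 showed a contact difference in every line in the direction seen in wild type. Its confluent CPM values were 54.7 and 26.0 in wild type, 44.8 and 27.1 with p190A, 55.7 and 32.7 with p190B, and 35.4 and 23.3 with both. The sub-confluent values were 15.0 and 12.1 in wild type, 18.4 and 12.3 with p190A, 18.3 and 18.3 with p190B, and 21.8 and 13.1 with both. Within each line every confluent library was above both sub-confluent ones. The mean single-knockdown log2 fold change was 1.22 (SE 0.27, edgeR adjusted p = 5.6e-03). Without the second sub-confluent p190A library it was 1.09 with adjusted p = 0.067. In the p190A line it was 1.19 with adjusted p = 0.062, and in the p190B line 1.25 with adjusted p = 0.054, both above the threshold. With both shRNAs it was 0.75 with adjusted p = 0.33. In experiment 2 the confluent mean was 48.2 ± 1.06 CPM (SD, n = 3) in wild type, 46.7 ± 3.03 (n = 3) with both shRNAs and 41.5 ± 2.49 (n = 3) with YAP5SA+S94A.

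ENSCAFT00000015382 was the single selected transcript called with both shRNAs. Its confluent CPM values were 71.6 and 85.6 in wild type, 177 and 184 with p190A, 156 and 139.5 with p190B, and 104 and 101 with both. Its sub-confluent values were 37.9 and 31.7 in wild type, 113 and 39.1 with p190A, 85.5 and 65.8 with p190B, and 38.6 and 29.3 with both. Density groups did not overlap in any line. The fold change in log2 was 1.07 in the mean of the single lines (SE 0.23, edgeR adjusted p = 4.0e-03), 1.20 with p190A (adjusted p = 0.031) and 0.94 with p190B (adjusted p = 0.075). With both it was 1.59 (SE 0.33, adjusted p = 0.031). Sub-confluent cells with both shRNAs were lower than the mean of the single ones by log2 -1.21 (SE 0.30, adjusted p = 8.3e-03). The second sub-confluent p190A library was far below the first. At confluence the mean was 180.3 ± 5.4 CPM (SD, n = 2) with p190A and 78.6 ± 9.89 (n = 2) in wild type, a pair that the rule did not compare. Confluent wild type of experiment 2 was at 34.4 ± 2.52 CPM (n = 3), close to the sub-confluent wild-type mean of 34.8 ± 4.41 (n = 2) in experiment 1.

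ENSCAFT00000024347 was an abundant transcript with no called contact difference in any knockdown. Confluent CPM values were 462 and 761 in wild type, 364 and 399 with p190A, 409 and 617 with p190B, and 544 and 648 with both. Sub-confluent values were 346 and 315 in wild type, 628 and 358 with p190A, 475 and 395 with p190B, and 808 and 651 with both. The density groups overlapped in p190A and p190B cells, and with both shRNAs the sub-confluent libraries were the higher ones. The mean single-knockdown log2 fold change was -0.10 (SE 0.18, edgeR adjusted p = 0.7). In sub-confluent cells both shRNAs gave a level above the mean of the single ones by log2 0.61 (SE 0.22, adjusted p = 0.049).

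ENSCAFT00000019934 also had no called contact difference in the knockdowns. Its confluent CPM values were 193 and 287 in wild type, 177 and 211 with p190A, 209 and 283 with p190B, and 204 and 238 with both. Its sub-confluent values were 113 and 119.8 in wild type, 232 and 146 with p190A, 223 and 238 with p190B, and 204 and 193 with both. Sub-confluent wild type was the lowest group of experiment 1, and the sub-confluent knockdown libraries lay in the confluent range except 1 p190A library. The mean single-knockdown log2 fold change was 0.03 (SE 0.15, edgeR adjusted p = 0.89).

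**Figure D4:**
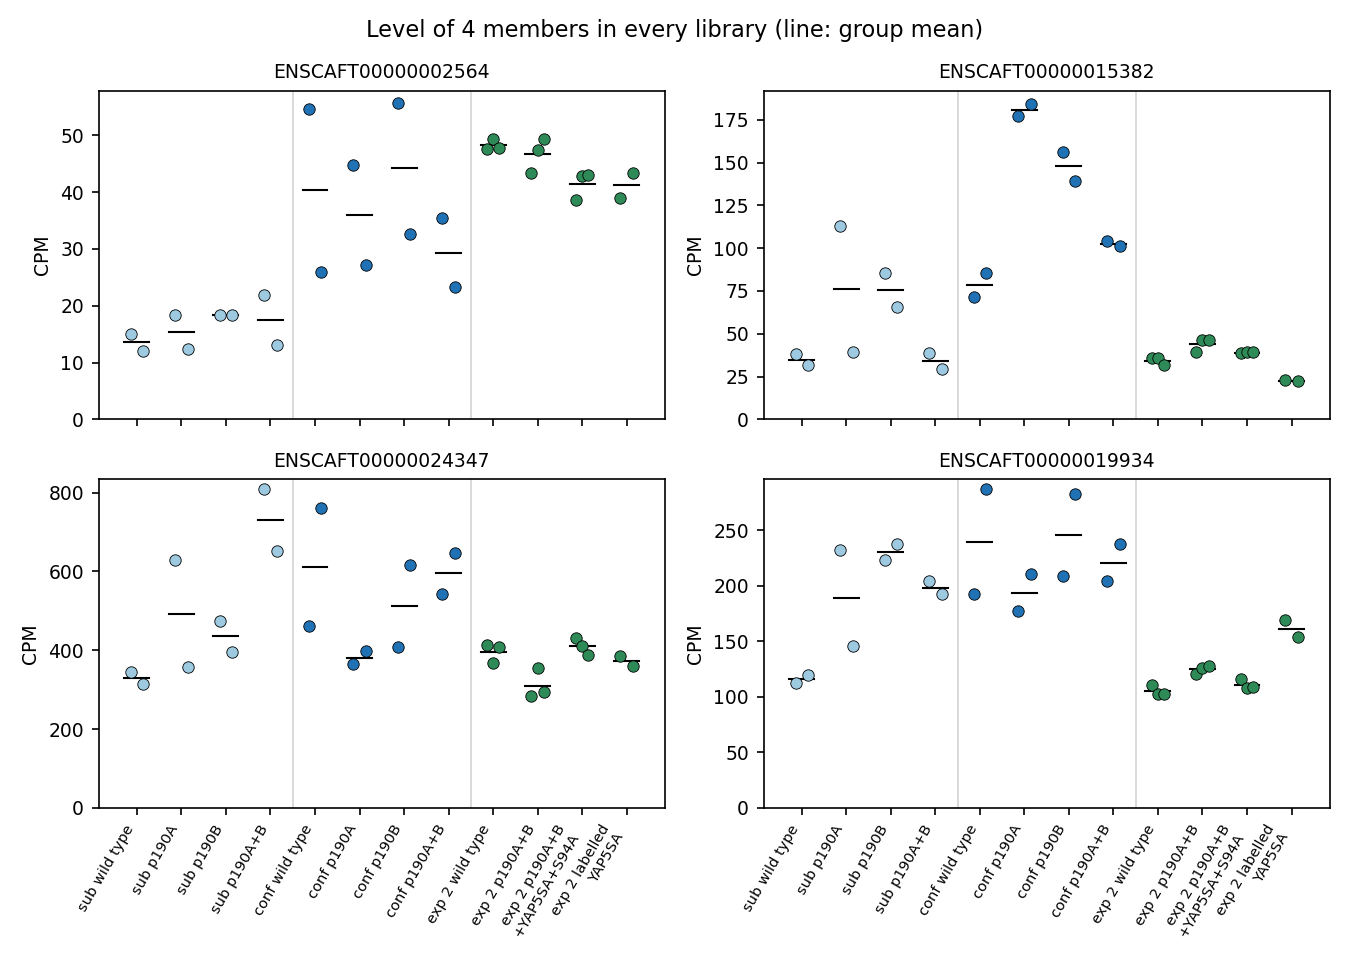
CPM of the 4 named transcripts in each library of experiment 1 and experiment 2, 1 panel per transcript, with lines at the group means. Sub-confluent wild type is the lowest group of experiment 1 for ENSCAFT00000024347 and ENSCAFT00000019934, while for ENSCAFT00000002564 all confluent libraries lie above all sub-confluent ones.

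Experiment 2 held confluent cells only, so it gave no contact difference. Adding YAP5SA+S94A to both shRNAs gave small changes in the selected transcripts. Against both shRNAs alone, 17 of 160 rose and 45 fell, beside 25.9% and 25.4% of all tested. Against wild type, 17 rose and 42 fell, beside 29.1% and 27.2%. The share that fell was near the background and the share that rose was below it, and the rule had required wild type and double knockdown to lie close to each other. The 2 comparisons share the YAP5SA+S94A libraries. Median log2 fold changes were -0.10 against both shRNAs and -0.12 against wild type, and 4 and 3 transcripts differed by at least 2-fold. By library the median above sub-confluent wild type stood at 0.85, 0.92 and 0.88 in wild type, 0.81, 0.82 and 0.86 with both shRNAs, 0.75, 0.72 and 0.74 with YAP5SA+S94A, and 0.69 and 0.73 in the libraries labelled YAP5SA. The YAP5SA+S94A libraries thus lay below every library of experiment 2 without a YAP construct in this median. The order was the same over all transcripts tested in experiment 1. There the median was 0.04 in the YAP5SA+S94A libraries, 0.06 to 0.07 with both shRNAs and 0.11 in wild type. For ENSCAFT00000024347 the confluent mean was 411 ± 20.7 CPM (SD, n = 3) with YAP5SA+S94A and 311 ± 38.1 (n = 3) with both shRNAs alone, a log2 fold change of 0.43 (SE 0.09, edgeR adjusted p = 5.9e-03). For ENSCAFT00000015382 it was 39.0 ± 0.213 against 43.9 ± 4.12 CPM (n = 3 each, -0.14, adjusted p = 0.044), and for ENSCAFT00000019934 it was 111 ± 4.32 against 125 ± 3.37 (n = 3 each, -0.15, adjusted p = 2.6e-03).

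**Figure D5:**
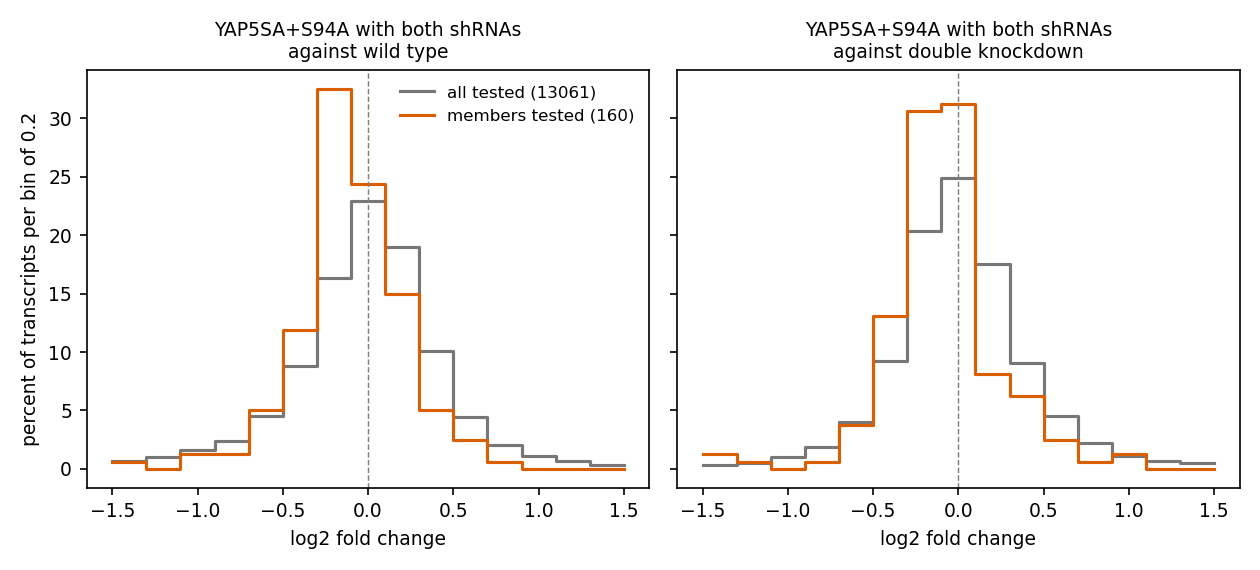
Distribution of the log2 fold change of both shRNAs with YAP5SA+S94A against wild type and against both shRNAs, in bins, as a percentage of the 160 tested selected transcripts and of all 13061 tested. The selected transcripts lie mostly between -0.5 and 0.3, with medians of -0.12 and -0.10.

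The libraries labelled YAP5SA and the confluent double knockdown of experiment 2 were limited by the rule on both sides, so their levels are a description. The median difference in L from wild type was -0.22 in the libraries labelled YAP5SA, with 40 transcripts above and 121 below, and -0.06 with both shRNAs, with 60 above and 101 below. Confluent wild type itself differed between the experiments. Experiment 2 minus experiment 1 had a median of -0.09 and a range of -1.47 to 2.73, with 22 selected transcripts at least 0.8 higher and 8 at least 0.8 lower in experiment 2.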

How the data were processed

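Messenger RNA libraries of TR-T10 dog cells were made with polyA selection (TruSeq) and sequenced as single reads, per the labels' protocols. The build CanFam3.1 and the tools HTSeq 0.6.0, STAR 2.3.1n and DESeq2 1.4.5 are named in the submitters' processing notes, with no roles. The authors deposited whole-number counts per Ensembl transcript, with no normalization. Reads on several overlapping transcripts (20.3% to 23.1% of uniquely placed reads) were in a separate summary row, so overlapping transcripts are measured from part of their reads; summary rows were left out. The strand setting of the counting was not given in the sources read here. Of 28 samples, 2 labelled YAP5SA held identical values and were counted as 1, which left 27 libraries. Nothing in the labels says that replicates were separate cultures, and p-values then reflect only sample-to-sample spread that may be technical.

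CPM were computed over transcript rows. edgeR 4.0.16 in R 4.3.3 (filterByExpr, TMM, robust quasi-likelihood F-test, Benjamini-Hochberg adjustment over all tested transcripts, threshold 0.05) was fitted to the 16 libraries of experiment 1 (8 groups, 12845 transcripts) and to the 11 of experiment 2 (4 groups, 13061 transcripts). The scripts were tested on simulated data. Alternatives were DESeq2 1.42.0, limma-voom (limma 3.58.1), other scaling, no filter, fits of the compared groups alone, a replicate block and leaving out each library. Named transcripts were the 2 highest and 2 lowest in the mean contact response among those with mean log2 CPM of at least 3. The selected transcripts, lists and tests were chosen with earlier results of these data known.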

Additional observations from a re-analysis of the deposited data

How the results depend on the processing

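The 98 calls in the mean of the single knockdowns were 88 to 135 under 7 other fits (other scaling, no filter, DESeq2, limma-voom, the compared groups alone and both replicate blocks). With 1 library left out they were 52 to 104. The 59 calls of YAP5SA+S94A against wild type were 46 to 65. With no filter on low counts there were 102 calls for p190A (13.5% of all tested), 85 for p190B (12%), 23 for both shRNAs (5.95%), 3 for p190A against p190B (0.462%), 26 for both shRNAs against the single ones (3.45%) and 47 for the sub-confluent comparison (20.8%). DESeq2 gave 47 for p190A (13.7%), 4 for both shRNAs (4.02%), 4 for both against the single ones (2.86%) and 41 for YAP5SA+S94A against both shRNAs (43.4%). Fits of the compared groups alone gave 6 for p190A (1.24%), 39 for p190B (16%) and 2 for both shRNAs (0.808%). With the second sub-confluent p190A library left out of the shared spread, an alternative chosen after seeing the data, there were 32 calls for p190B (15%) and 9 for both shRNAs (5.63%). Leaving out 1 library at a time gave 0 to 62 calls for p190A, 0 to 21 for p190B, 0 to 1 for both shRNAs, 0 to 1 for p190A against p190B, 0 to 7 for both against the single ones and 3 to 28 for the sub-confluent comparison. It gave 101 to 220 selected transcripts, among which were 82 to 159 of the 161. Of the 161, 82 stayed selected without the first confluent wild-type library of experiment 1, and 92 without the second. CPM on TMM effective library sizes kept 123 of them, and an offset of 2 kept 89. A contact threshold of 1.0 selected 56 transcripts and one of 0.6 selected 414. The cause of these changes was not tested.

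Replicate numbers were shared between the groups, but the labels do not tie them to a culture or day. Deviations of same-numbered libraries from their group means correlated at 0.142 to 0.537 within a density, -0.2 to 0.026 between densities and -0.036 to 0.038 in experiment 2. With a replicate block there were 49 calls for p190A (14.5%), 33 for p190B (13%), 5 for both shRNAs (2.76%) and 1 for both against the single ones (1.55%). With a replicate block within each density there were 85 (26.9%), 65 (22.7%), 19 (10.2%) and 9 (4.5%), and 35 for the sub-confluent comparison (39.1%).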
